A study of Mus musculus with 12 samples.

Results

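The genes described here encode translation initiation and elongation factors, the proteins that start and extend protein synthesis on the ribosome. They were chosen by name: the protein-coding genes of GENCODE M21 whose symbols start with Eif1, Eif2, Eif3, Eif4, Eif5, Eif6, Eef1 or Eef2, with the release factor genes Etf1 and Gspt1. The kinases of eIF2, Eif4e, the eIF4E-binding proteins, Eef1e1 and the eEF1A methyltransferases were left out by the same rule. This gave 57 of 38481 genes: 39 initiation factor genes, 6 elongation factor genes and 12 others, which are release factors, modifiers of eEF2, the eIF5A pair, Eif6 and 5 further genes with an Eif name (Eif1a, Eif1ad, Eif4a3, Eif4e1b and Eif4enif1). Of these 5, Eif1a encodes a form of the initiation factor eIF1A and was not counted among the 39. Total RNA was sequenced from C2C12 cells, a mouse myoblast line that proliferates in serum and can form muscle fibres. All cells were grown in the same medium with serum and received an siRNA for 3 days, against either Crebl2, a bZIP protein related to CREB, or Renilla luciferase (Luc), which mammalian cells lack. For the following 12 hours they received 20 nM rapamycin, an inhibitor of the kinase complex mTORC1, or ethanol. The 4 groups were therefore Luc siRNA with ethanol, Crebl2 siRNA with ethanol, Luc siRNA with rapamycin and Crebl2 siRNA with rapamycin, with 3 libraries each; cells with the Luc siRNA are called control cells and those with the Crebl2 siRNA knockdown cells. The libraries with a Crebl2 siRNA all carry the same siRNA, labelled siRNA 1, and all cells come from 1 line. The labels do not say whether the libraries of a group came from separate cultures. The p-values therefore set the differences between groups only against the spread between these libraries, and that spread may be technical.

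Initiation begins when eIF4E, eIF4G and the helicase eIF4A, helped by eIF4B, prepare the capped end of an mRNA, and the small ribosomal subunit, carrying eIF1, eIF1A, eIF3, eIF5 and the ternary complex of eIF2 with the initiator tRNA, binds it and scans for the start codon. eIF2B recharges eIF2 with GTP, eIF5B joins the large subunit, and eEF1A, its exchange factor eEF1B and the translocase eEF2 then add amino acids until the release factors eRF1 and eRF3 end the chain. The mRNAs of many of these factors and of ribosomal proteins carry a pyrimidine-rich 5′ end, the TOP element, through which mTORC1 is known to control their translation.

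Library totals ran from 33404087 to 42891015 counts. Crebl2 itself, the target of the siRNA, had 25.1 ± 1.20 CPM (read counts scaled to a common library size after TMM normalisation; SD, n = 3) in control cells with ethanol and 6.10 ± 1.27 CPM with its own siRNA, and 37.5 ± 2.09 and 9.70 ± 0.862 CPM in rapamycin. All 4 endothelial, 4 epithelial and 4 macrophage markers were under 1 CPM, and 3 of 4 neuron markers were at 0. Exonic bases shared between listed transcripts carry few or no counts here, as described below. Such bases make up most of Pecam1, Tek, Cdh1, Rbfox3, Syt1 and all 4 macrophage markers. The low values of these genes therefore cannot show that such cells were absent. Cdh5, Kdr, Epcam, Krt8 and Krt18, in which no exonic base is shared, were under 1 CPM as well. The other marker sums moved with the treatments. They are given for control cells with ethanol, knockdown cells with ethanol, control cells with rapamycin and knockdown cells with rapamycin, in that order. The 8 myoblast markers, 7 of them above 1 CPM, summed to 3810 to 4150, 3510 to 3960, 2950 to 3210 and 3360 to 3440 CPM, and Myog alone went from 203 ± 22.6 CPM in the first group to 20.1 ± 4.19 CPM in the second (SD, n = 3). The 8 muscle differentiation genes, 5 of them under 1 CPM on average, summed to 311 to 420, 41.5 to 49.6, 112 to 135 and 29.7 to 36.8 CPM, most of it Acta1. Nearly all exonic bases of Myh3, Tnnt1 and Tnnt3 are shared, so these genes could hardly be counted. The 8 cell cycle genes summed to 1720 to 1950, 2120 to 2410, 547 to 614 and 598 to 754 CPM. The 4 fibroblast markers summed to 610 to 656, 733 to 1080, 672 to 741 and 919 to 992 CPM, most of it Col1a1, while Dcn stood at 17.8 ± 1.23 and 4.41 ± 0.950 CPM in the first 2 groups. The 4 adipocyte markers, 3 of them under 1 CPM, summed to 235 to 266, 192 to 205, 259 to 281 and 186 to 194 CPM. The part of these sums in the results below was not tested. The total RNA came from whole cultures, so fewer cells of a type and less RNA per cell cannot be told apart.

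Because mTORC1 is known to act through the TOP element, the start of each gene was searched for a pyrimidine tract, here a C followed by at least 4 bases that are C or T. RefSeq promoter sequences on GRCm38.p6 were matched for 44 of the 57 genes. Each run below starts 5 bases before the annotated first base and holds 30 bases on the gene's strand, with the tract in capitals. The genes were picked, with their changes known, to show each combination: the first 5 carry a tract in the window and rose with rapamycin, Eif3b carries one and fell, Eef1b2 and Eif2a have none and rose, and the last 3 have none and fell. How often each combination occurs is counted below over all tested genes with a promoter sequence. The windows lie at chr9:78481700-78481729 for Eef1a1 (minus strand), chr10:81176626-81176655 for Eef2 (plus), chr15:102073768-102073797 for Eif4b (plus), chr7:108934410-108934439 for Eif3f (plus), chr15:79075218-79075247 for Eif3l (plus), chr5:140419300-140419329 for Eif3b (plus), chr1:63176826-63176855 for Eef1b2 (plus), chr3:58525816-58525845 for Eif2a (plus), chr11:69672399-69672428 for Eif4a1 (minus), chr12:78862067-78862096 for Eif2s1 (plus) and chr5:124579107-124579136 for Eif2b1 (minus).
Eef1a1: CCCTCTTCCCgagggtgggggagaacggta
Eef2: cgggcgttgacgtcagcggtCTCTTCCgcc
Eif4b: tcggacgccgcgccaCCCCCTCgcgctgct
Eif3f: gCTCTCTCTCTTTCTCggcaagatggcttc
Eif3l: CTTCTTCCgctctctcccacgggcttctgg
Eif3b: gcggtgaCTTCTgggagtcggaagcagggc
Eef1b2: gttccgccggaagtagccgaggccttgcgt
Eif2a: cgcccgctccggagagggagggcgagcgcc
Eif4a1: gtcacgtcgagttgcagagcgccggcaggc
Eif2s1: ggcgaagcgcacgctgaggagcttcggcgt
Eif2b1: ttccggcgccgacgagtgacgccacgcacg

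A C at the annotated first base, followed by at least 4 bases that are C or T, was present in 2 of the 44 genes, Eif2s3x and Eif3f (4.55%, against 3.01% of 27025 genes in the RefSeq table and 2.94% of 8491 tested coding genes). In both genes this C lay inside a longer tract that began before the first base, at -1 for Eif2s3x and -4 for Eif3f. Within 5 bases of the first base a tract was present in 11 (25.0%, against 21.2% and 23.5%), and from 5 bases before to 20 bases after it in 17 (38.6%, against 38.5% and 39.6%), so the tract was about as frequent among these genes as among all genes. An annotated first base can lie some bases away from the start used in these cells, and the wider window was chosen after seeing the sequences. A marked tract is a match of letters near an annotated start and was not shown to open the mRNA. A window without a tract does not show that the mRNA lacks one. For Eef1a1 the window lies inside the GENCODE gene, which extends to 78489151 on the minus strand, so the annotations differ on its start. Among the 15 tested genes with a tract in the wider window, rapamycin raised 8 and lowered 2 in control cells, and among the 25 tested genes without one it raised 6 and lowered 7. In knockdown cells the counts were 7 higher and 3 lower against 6 higher and 10 lower. Of all genes tested, rapamycin raised 19.5% and lowered 21.6% in control cells, and raised 19.7% and lowered 25.6% in knockdown cells. The split by tract was not counted over all genes, and no test was made of it.

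Crebl2 is related to CREB, so promoters from 250 bases before to 50 bases after the first base were also searched on both strands for the cyclic AMP response element TGACGTCA, its core TGACG and the E-box CACGTG. The full element was found in 1 of the 44 genes, Eef2 (2.27%, against 2.03% of all genes in the table and 3.54% of tested coding genes), where it lies just after the annotated first base at chr10:81176622-81176651 on the plus strand, printed with the element in capitals because it was the only full match among these promoters.
Eef2: aggccgggcgtTGACGTCAgcggtctcttc
The core TGACG, which every full element contains and which can overlap an E-box, was in 22 of the 44 promoters, against 23.0% of all genes in the table and 34.7% of tested coding genes, and the E-box was in 11 (25.0%, against 8.09% and 11.1%). These are matches of letters and not measured binding.

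Of the 5 elongation factor genes tested, 4 rose with rapamycin in control cells and 4 in knockdown cells, and none fell. The initiation factor genes went both ways: of 36 tested, 15 rose and 7 fell in control cells, and 13 rose and 12 fell in knockdown cells. With Eif1a counted among them, 8 of 37 fell in control cells and 13 in knockdown cells. With 1 library left out at a time, the initiation factor genes that rose in control cells ran from 10 to 15. The lowest count came without replicate 2 of the control cells with rapamycin. Those that fell ran from 6 to 9. In knockdown cells the rises ran from 12 to 15 and the falls from 11 to 12. In control cells, 19 of the 52 factor genes tested rose and 12 fell by edgeR's quasi-likelihood F test at an adjusted p under 0.05, 59.6% in all, where 41.1% of all 13247 genes tested were called (19.5% higher and 21.6% lower). Rises and falls of a gene are differences on the log2 scale throughout, and a pair of them gives control cells and then knockdown cells. The median log2 fold change of the tested factor genes in control cells was 0.05, beside 0.02 over all genes. In knockdown cells, 18 rose and 19 fell (71.2%), where 45.3% of all genes were called (19.7% higher and 25.6% lower), and the median was -0.05, beside -0.01. The 5 genes that were not tested, Eef1a2, Eif2b4, Eif2s2, Eif2s3y and Eif4e1b, had 25, 1, 5, 1 and 2 counts over the 12 libraries. Of 8480 coding transcripts that share every exonic base with another listed transcript, 99.3% had no count in any library, against 32.0% of the 31661 others, so shared bases carry few or no counts here. For 24 of the 57 genes, under 90% of the exonic bases lay in a single listed transcript, a measure called the countable share here. Of these 24, 7 had a countable share under 20%.

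Eef2, which encodes the translocase that moves the ribosome by one codon (chromosome 10, 81176631 to 81182498 on GRCm38), showed the largest rise of the tested factor genes under rapamycin. Its levels were 7275, 6680 and 7082 CPM in control cells with ethanol and 12859, 13919 and 12837 CPM in control cells with rapamycin. In knockdown cells they were 7831, 7126 and 7954 CPM in ethanol and 15578, 16517 and 16652 CPM in rapamycin. Every rapamycin library lay above every ethanol library. The log2 fold change for rapamycin was 0.91 with a standard error (SE) of 0.05 in control cells (edgeR adjusted p = 1.8e-09) and 1.09 (SE 0.05, edgeR adjusted p = 2.1e-10) in knockdown cells.

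Eef1a1, which encodes the factor that brings aminoacyl-tRNA to the ribosome (chromosome 9, 78478449 to 78489151), held 16803, 16730 and 16380 CPM in control cells with ethanol and 24785, 25054 and 24220 CPM in rapamycin. In knockdown cells its levels were 18105, 17854 and 18754 CPM in ethanol and 28560, 29651 and 30321 CPM in rapamycin. The 4 groups did not overlap. The log2 fold change for rapamycin was 0.57 (SE 0.04, edgeR adjusted p = 7.1e-09) in control cells and 0.69 (SE 0.04, edgeR adjusted p = 5.9e-10) in knockdown cells. The genome holds many processed copies of this gene, and how the deposited counting treated reads that match several places is not given in the sources used here.

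The subunits of the exchange factor eEF1B rose less. Eef1g, its gamma subunit, held 826.5, 775.3 and 815.1 CPM in control cells with ethanol, 957.7, 1004 and 938.7 CPM in control cells with rapamycin, 1156, 1101 and 1158 CPM in knockdown cells with ethanol and 1397, 1572 and 1434 CPM in knockdown cells with rapamycin. The 4 groups were separate here too, but the order differed from that of Eef1a1 and Eef2, with knockdown cells in ethanol above control cells in rapamycin. The log2 fold change for rapamycin was 0.26 (SE 0.05, edgeR adjusted p = 0.00051) in control cells and 0.37 (SE 0.05, edgeR adjusted p = 1.9e-05) in knockdown cells. Eef1b2, the catalytic subunit, held 91.3, 97.1 and 88.2 CPM in control cells with ethanol and 111, 119 and 120 CPM in rapamycin, and 100.1, 100.3 and 114 CPM in ethanol against 146, 145 and 153 CPM in rapamycin in knockdown cells, and its log2 fold changes were 0.34 and 0.50. Eef1d, the delta subunit, had a countable share of 11.8%, held 0.344, 0.309 and 0.44 CPM in control cells with ethanol, 0.361, 0.479 and 0.442 CPM in rapamycin, 0.28, 0.45 and 0.455 CPM in knockdown cells with ethanol and 0.266, 0.493 and 0.182 CPM in rapamycin, and passed no test. Its groups overlapped. Eef1a2, the form of eEF1A of mature muscle and nerve, had 25 counts in all: 2, 5 and 1 in control cells with ethanol, 2, 1 and 1 in rapamycin, 2, 1 and 0 in knockdown cells with ethanol and 4, 2 and 4 in rapamycin. The plot of levels by library shows Eef2, Eef1a1 and Eef1g beside 5 others.

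**Figure D1:**
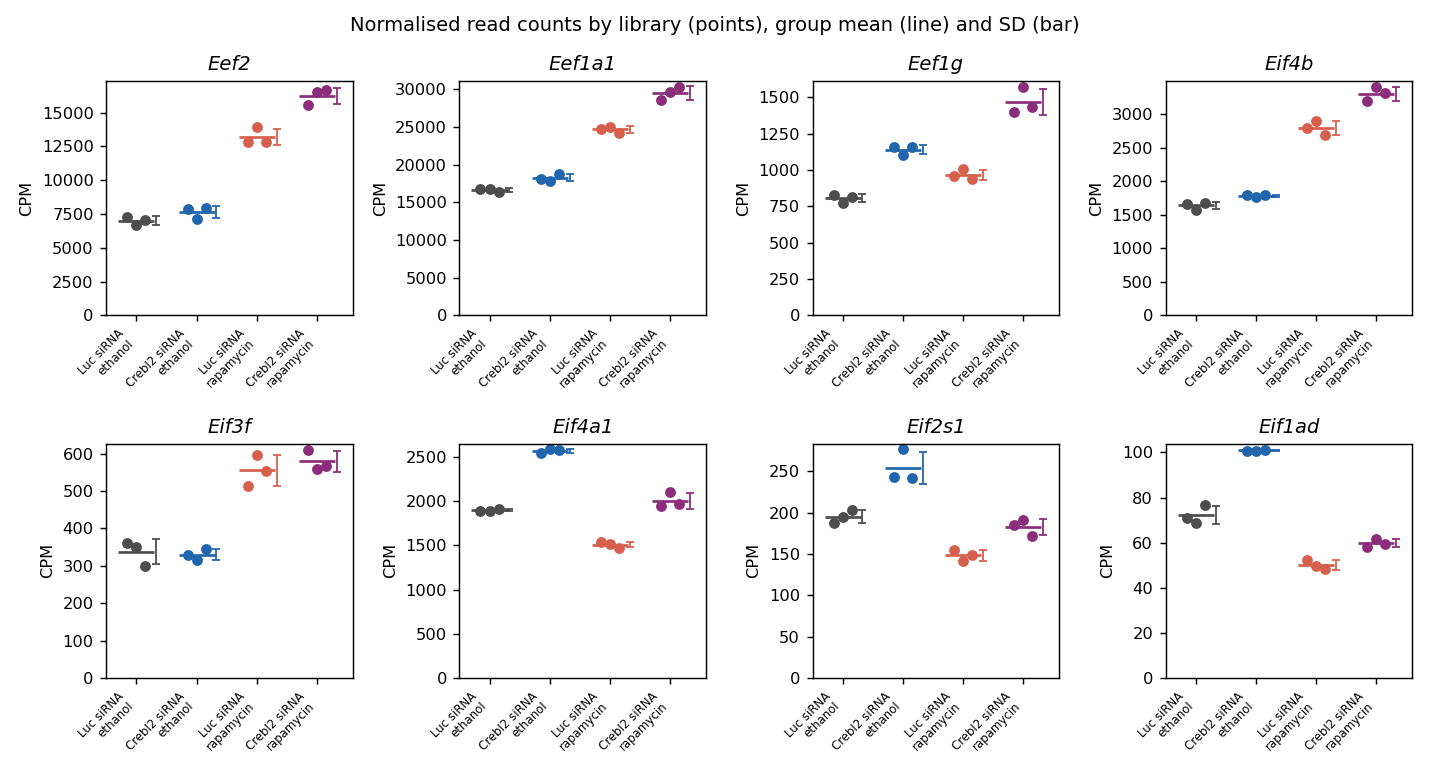
Normalised read counts (CPM, vertical axes from 0) of 8 factor genes in each of the 12 libraries, with the 4 groups along the horizontal axes; points are libraries, lines are group means and bars are SD (n = 3). Eef2 lies between 6680 and 7954 CPM in the ethanol libraries and between 12837 and 16652 CPM in the rapamycin libraries, while Eif4a1, Eif2s1 and Eif1ad are lower in rapamycin than in ethanol with the same siRNA.

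Summed over the 6 elongation factor genes, the level was 24550 ± 390 CPM (SD, n = 3) in control cells with ethanol, 27120 ± 902 CPM in knockdown cells with ethanol, 38980 ± 1020 CPM in control cells with rapamycin and 47380 ± 1510 CPM in knockdown cells with rapamycin. The 39 initiation factor genes summed to 11300 ± 66.5, 13200 ± 28.3, 13070 ± 251 and 15120 ± 372 CPM in the same order. The elongation sum was thus 1.59 times as high with rapamycin as with ethanol in control cells and 1.75 times in knockdown cells, and the initiation sum 1.16 and 1.14 times. The ratio of the sums was 2.15 to 2.204 in the libraries of control cells with ethanol, 1.978 to 2.122 in knockdown cells with ethanol, 2.94 to 3.027 in control cells with rapamycin and 3.076 to 3.247 in knockdown cells with rapamycin. These ranges did not overlap. Eef1a1 and Eef2 made up 95.4% to 97.2% of the elongation sum in every library, so the ratio describes these 2 genes; without Eef1a1 it was 0.70, 0.673, 1.09 and 1.18 in the order of the sums. No p-value is given for these sums, since they are scores over chosen genes.

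**Figure D2:**
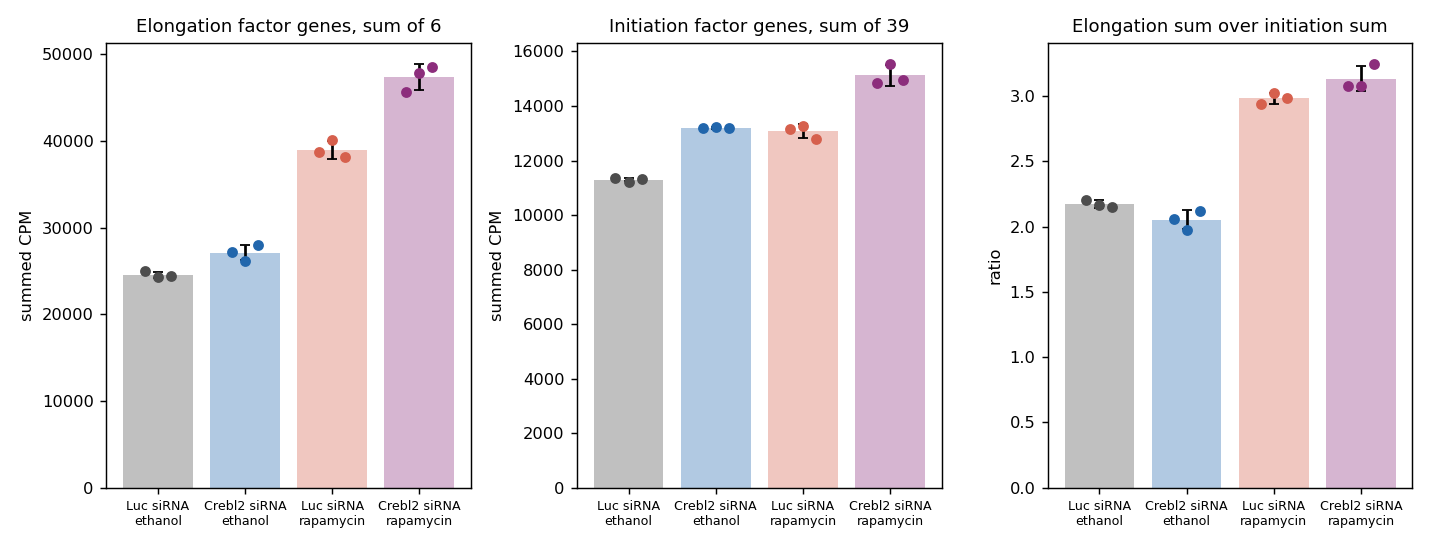
Summed CPM of the 6 elongation factor genes (left), summed CPM of the 39 initiation factor genes (middle) and the ratio of the sums (right) in the 4 groups; bars are group means with SD (n = 3) and points are libraries. The ratio lies between 1.978 and 2.204 in the ethanol libraries and between 2.94 and 3.247 in the rapamycin libraries.

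eIF3, the largest initiation factor, is a scaffold that binds the small subunit. Of its 14 genes, 10 rose and 2 fell with rapamycin in control cells, and 8 rose and 3 fell in knockdown cells. The shares called were 85.7% and 78.6%, beside 41.1% and 45.3% of all genes. Eif3f, a subunit with an MPN domain (chromosome 7, 108934417 to 108942951), rose most: it held 362, 352 and 300.1 CPM in control cells with ethanol and 515, 597 and 555 CPM in rapamycin, and 329, 315 and 346 CPM against 611, 559 and 568 CPM in knockdown cells. Rapamycin libraries lay above ethanol libraries throughout, with log2 fold changes of 0.72 (SE 0.07, edgeR adjusted p = 7.8e-07) and 0.81 (SE 0.07, edgeR adjusted p = 1.5e-07). Eif3e, Eif3h and Eif3m followed, with log2 fold changes of 0.53, 0.45 and 0.37 in control cells and 0.56, 0.53 and 0.36 in knockdown cells. Eif3l (0.26 and 0.31), Eif3d (0.20 and 0.20), Eif3g (0.18 and 0.21) and Eif3i (0.18 and 0.13) rose less. The calls of Eif3d, Eif3g and Eif3i in control cells were lost without replicate 2 of the control cells with rapamycin, with log2 fold changes of 0.13, 0.11 and 0.11. Those of Eif3g and Eif3i were also lost without replicate 1 of that group (0.16 and 0.15) and without replicate 2 (Eif3g, 0.16) or 3 (Eif3i, 0.15) of the control cells with ethanol. The rise of Eif3i in knockdown cells was lost in turn without 5 of the 12 libraries, with the lowest value without replicate 2 of the knockdown cells with ethanol (0.09).

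The core subunits of eIF3 went different ways. Eif3a, the largest subunit, had a log2 fold change of 0.12 in control cells (edgeR adjusted p = 0.047) and 0.10, not called, in knockdown cells, and its call was lost in turn without 9 of the 12 libraries, among them each of the 3 libraries of control cells with rapamycin (log2 fold changes of 0.08, 0.10 and 0.10). Eif3c lay at 0.03 and -0.03 and passed no test for rapamycin. Eif3b fell by 0.18 on the log2 scale in control cells and by 0.32 in knockdown cells, and its first call was lost without replicate 1 of the control cells with ethanol (-0.13). Eif3j1, a loosely bound subunit, fell by 0.28 and 0.47. Its near-identical copy Eif3j2 held 7.26, 8.16 and 7.07 CPM in control cells with ethanol, 7.18, 5.62 and 6.42 CPM in rapamycin, 8.67, 9.54 and 8.46 CPM in knockdown cells with ethanol and 6.80, 5.02 and 6.11 CPM in rapamycin, with a called fall of 0.57 in knockdown cells and -0.23, not called, in control cells. Reads of these copies can be exchanged, so their separate values are uncertain. Eif3k, with a countable share of 37.3%, rose by 0.50 in control cells and lay at 0.31, not called, in knockdown cells.

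Within eIF4, the factors of the cap, the helicase gene fell with rapamycin and the gene of its partner rose. Eif4b, the partner that stimulates the helicase (chromosome 15, 102073773 to 102097173), held 1667, 1578 and 1683 CPM in control cells with ethanol and 2798, 2902 and 2694 CPM in rapamycin, and 1800.1, 1771 and 1791 CPM against 3204, 3403 and 3318 CPM in knockdown cells. Its log2 fold changes were 0.77 (SE 0.04, edgeR adjusted p = 1.4e-09) and 0.89 (SE 0.04, edgeR adjusted p = 2.2e-10), and no rapamycin library overlapped an ethanol library. Eif4a1, the helicase (chromosome 11, 69666936 to 69672423), held 1889, 1894 and 1916 CPM in control cells with ethanol and 1537, 1513 and 1473 CPM in rapamycin, and 2544, 2585 and 2583 CPM against 1940, 2106 and 1968 CPM in knockdown cells. It fell by 0.33 (SE 0.04, edgeR adjusted p = 7.1e-06) and by 0.36 (SE 0.04, edgeR adjusted p = 2.5e-06), and the 4 groups did not overlap.

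Per countable kilobase, which allows a comparison between genes, Eif4a1 stood at 1071 ± 8.09 CPM and Eif4b at 426 ± 14.7 CPM per kilobase in control cells with ethanol, and at 850 ± 18.2 and 726 ± 27.0 CPM per kilobase in rapamycin, so their levels lay closer to each other in rapamycin. Eif4e3, a cap-binding protein of the eIF4E family, held 16.2, 17.4 and 18.6 CPM in control cells with ethanol and 24.9, 23.7 and 23.6 CPM in rapamycin, and 27.9, 26.6 and 24.2 CPM against 33.6, 34.4 and 32.4 CPM in knockdown cells. The rapamycin libraries lay above the ethanol libraries with each siRNA, and the log2 fold changes were 0.47 and 0.35. Eif4g2, which resembles eIF4G but lacks the part that binds eIF4E, fell by 0.17 and 0.24, and the first call was lost without replicate 2 (-0.14) or 3 (-0.17) of the control cells with ethanol or replicate 2 of the control cells with rapamycin (-0.15). Eif4g1, Eif4g3 and Eif4h, with countable shares of 7.90%, 33.4% and 13.2%, and Eif4a2, with 28.7%, were not called under rapamycin, and their counts cover a small part of each gene.

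Of the 9 tested factors of scanning, start-codon choice and the ternary complex, 2 rose and 2 fell with rapamycin in control cells, and 2 rose and 5 fell in knockdown cells. The share called was 44.4% in control cells, near the 41.1% of all genes, and 77.8% in knockdown cells, beside 45.3%. Eif2s1, the alpha subunit of eIF2 that stress kinases phosphorylate (chromosome 12, 78861819 to 78887010), held 188, 195 and 203 CPM in control cells with ethanol and 155, 142 and 148 CPM in rapamycin, and 243, 276 and 242 CPM against 184, 191 and 171 CPM in knockdown cells. The rapamycin libraries were below the ethanol libraries with each siRNA, with falls of 0.40 (SE 0.06, edgeR adjusted p = 6.1e-05) and 0.48 (SE 0.06, edgeR adjusted p = 6.9e-06). Eif2a, a separate protein that can also bind initiator tRNA, rose by 0.39 and 0.47. Eif1, which guards start-codon choice, rose by 0.21 with each siRNA, while Eif1ax, which encodes eIF1A, fell by 0.17 and 0.29. Eif1b, a paralog of Eif1, lay at 0.05 in both and was not called.

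Eif2s3x, Eif5 and Eif5b passed the test in knockdown cells and missed it in control cells. Eif2s3x, the gamma subunit of eIF2, held 515, 551 and 537 CPM in control cells with ethanol and 517, 496 and 507 CPM in rapamycin (-0.08), and 519, 590 and 529 CPM against 447, 451 and 429 CPM in knockdown cells (-0.30). Eif5, the GTPase activator of eIF2, held 84.9, 79.4 and 62.7 CPM and 62.1, 65.5 and 65.1 CPM in control cells (-0.24), and 78.8, 105 and 80.0 CPM and 74.8, 52.9 and 52.4 CPM in knockdown cells (-0.55). Eif5b, which joins the subunits, lay at -0.11 and -0.21, the second not called without replicate 1 of the knockdown cells with rapamycin (-0.16). For none of these was the difference between the siRNAs called.

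eIF2B, the exchange factor of eIF2, has 5 subunits, of which Eif2b4, with 1 count in all, was not tested. Eif2b1 (alpha) fell by 0.36 in control cells (SE 0.04, edgeR adjusted p = 8.2e-06) and by 0.52 in knockdown cells (SE 0.04, edgeR adjusted p = 1.3e-07). Its levels were 81.9, 77.2 and 82.7 CPM in control cells with ethanol and 64.0, 64.2 and 59.8 CPM in rapamycin, and 94.4, 95.1 and 95.1 CPM against 64.9, 67.7 and 66.3 CPM in knockdown cells, with no overlap between treatments. Eif2b2 (beta) went the other way, with 0.14 and 0.22, and its first call was lost in turn without 8 of the 12 libraries, with the lowest value without replicate 2 of the control cells with rapamycin (0.08). Eif2b5 (epsilon), the catalytic subunit, lay at 0.02 and -0.06 and was not called. Eif2b3 (gamma) lay under 6 CPM, at -0.15 in control cells and -0.34 in knockdown cells, called in the second but not without replicate 2 of the knockdown cells with ethanol, or replicate 2 or 3 of those with rapamycin (-0.26, -0.31 and -0.25).

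Both release factor genes fell with rapamycin. Etf1, which encodes eRF1, held 298, 305 and 309 CPM in control cells with ethanol and 259, 239 and 252 CPM in rapamycin, and 377, 415 and 373 CPM against 290.4, 298 and 280 CPM in knockdown cells, falls of 0.28 and 0.42. Gspt1, which encodes eRF3, fell by 0.56 (SE 0.08, edgeR adjusted p = 5.5e-05) and by 0.80 (SE 0.08, edgeR adjusted p = 1.2e-06). It held 14.6, 16.8 and 15.7 CPM against 11.6, 9.42 and 10.9 CPM in control cells and 17.5, 18.9 and 17.7 CPM against 10.5, 10.2 and 10.4 CPM in knockdown cells, from a countable share of 22.2%. Gspt2, a second eRF3 gene that the rule does not take in, was fully countable. Its means were 10.6 ± 0.459 CPM in ethanol and 9.77 ± 0.471 CPM in rapamycin in control cells (SD, n = 3). In knockdown cells they were 12.5 ± 0.148 and 11.1 ± 0.447 CPM. Among the further genes with an Eif name, Eif1ad, named for its eIF1A domain, held 71.1, 68.9 and 76.5 CPM against 52.4, 49.8 and 48.2 CPM in control cells and 101, 101 and 101 CPM against 58.2, 61.7 and 59.5 CPM in knockdown cells. Ethanol and rapamycin libraries were separate, with falls of 0.52 (SE 0.05, edgeR adjusted p = 4.7e-07) and 0.75 (SE 0.05, edgeR adjusted p = 5.5e-09). Eif4a3, the helicase of the exon junction complex, held 257, 238 and 251 CPM against 188, 193 and 186 CPM in control cells and fell by 0.39 and 0.45, and Eif1a, which encodes a form of eIF1A, fell by 0.35 and 0.40. Eef2k, the kinase that inhibits eEF2, was not called under rapamycin (0.04 and -0.01), and Eef2kmt, which methylates eEF2, lay at 0.05 in control cells and rose by 0.18 in knockdown cells. Eif6, which keeps the ribosomal subunits apart, lay at -0.11, not called, in control cells and fell by 0.22 in knockdown cells, a call lost without replicate 3 of the knockdown cells with ethanol (-0.18) or replicate 1 (-0.13) or 3 (-0.19) of those with rapamycin. Eif5a had a countable share of 30.7% and 195 counts in all, and its called fall of 0.83 in knockdown cells was lost in turn without 4 of the 12 libraries (-0.64 to -0.83). Eif2d, which can recycle ribosomes, and Eif4enif1, which carries eIF4E into the nucleus, passed no test in any comparison.

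The rapamycin comparisons with each siRNA share no library. Of the factor genes that rose in control cells, 17 of 19 also rose in knockdown cells (89.5%), which is 94.4% of the 18 that rose there. Of those that fell, all 12 also fell in knockdown cells, 63.2% of the 19 that fell there. No factor gene was called in opposite directions. Over all genes tested, the shares were 73.3% and 72.3% for rises and 84.8% and 71.6% for falls, with 27 genes called in opposite directions.

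**Figure D3:**
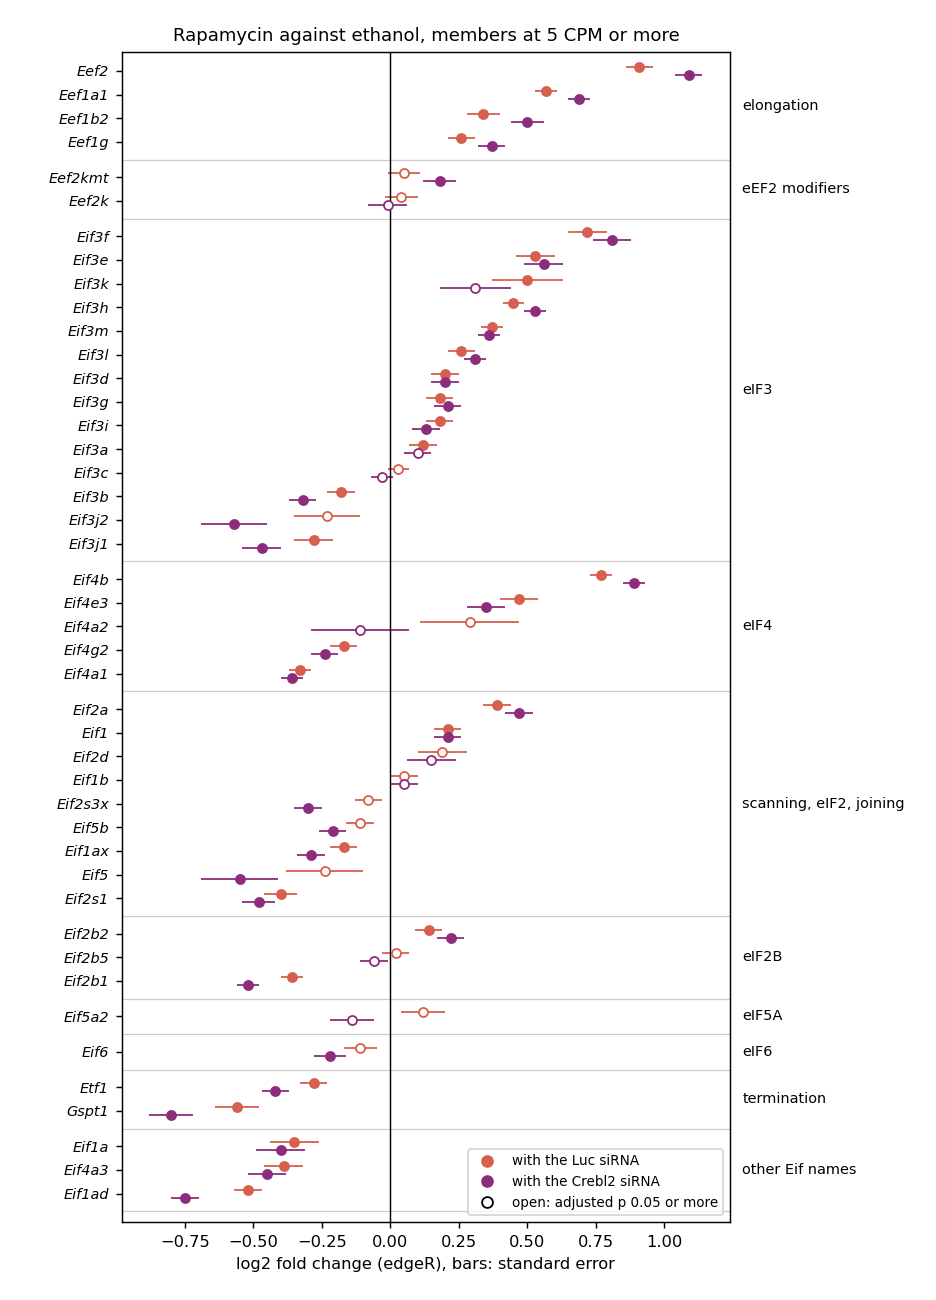
Log2 fold change (horizontal axis) for rapamycin against ethanol in control cells and in knockdown cells, for the 44 tested factor genes at or above 5 CPM on average, grouped by role; bars are standard errors, filled points passed the test and open points did not. Eef2 is farthest to the right at 0.91 and 1.09, and Gspt1 farthest to the left at -0.56 and -0.80.

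Most factor genes called for the Crebl2 siRNA rose, by small amounts. In ethanol, 28 of 52 rose and 2 fell (57.7%), where 38.4% of all genes tested were called (21.4% higher and 17.0% lower). In rapamycin, 25 rose and 3 fell (53.8%), where 33.1% of all genes were called (16.3% higher and 16.8% lower). Pairs of values for the siRNA give ethanol and then rapamycin. The median log2 fold change of the tested factor genes was 0.19 and 0.15, beside 0.01 and -0.01 over all genes. Of the 28 that rose in ethanol, 22 also rose in rapamycin (78.6%, and 88.0% of the 25 there), from comparisons that share no library; over all genes tested the shares were 59.2% and 77.8%.

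Among elongation factors, Eef1g rose most with the Crebl2 siRNA, by 0.50 in ethanol (SE 0.05, edgeR adjusted p = 1.8e-06) and by 0.60 in rapamycin (SE 0.05, edgeR adjusted p = 3e-07). Eef1a1 rose by 0.13 and 0.26, and Eef1b2 by 0.19 and 0.34. In ethanol both calls were lost with only the groups compared (0.10, edgeR adjusted p = 0.074, and 0.16, edgeR adjusted p = 0.076), and that of Eef1a1 also with no count filter (0.10, edgeR adjusted p = 0.16). The call of Eef1b2 was also lost without replicate 3 of the control cells with ethanol (0.16) or of the knockdown cells with ethanol (0.12). Eef2 lay at 0.12 in ethanol, which missed the threshold (edgeR adjusted p = 0.073; the 6 libraries overlap), and rose by 0.30 in rapamycin (edgeR adjusted p = 0.00036). The elongation sum was 1.10 times as high with the Crebl2 siRNA in ethanol and 1.22 times in rapamycin, and the initiation sum 1.17 and 1.16 times. Eef2k fell with the Crebl2 siRNA in both treatments: it held 15.8, 15.4 and 15.6 CPM in control cells and 12.3, 12.2 and 12.8 CPM in knockdown cells in ethanol, and 15.8, 15.2 and 17.1 CPM against 12.3, 12.6 and 12.1 CPM in rapamycin. Its log2 fold changes were -0.33 (SE 0.07, edgeR adjusted p = 0.0011) and -0.38 (SE 0.07, edgeR adjusted p = 0.00041), with no overlap of the groups.

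Of the 36 initiation factor genes tested, 21 rose and 1 fell with the Crebl2 siRNA in ethanol, and 18 rose and 1 fell in rapamycin. The shares called were 61.1% and 52.8%, beside 38.4% and 33.1% of all genes. Eif4e3 had the largest called rise among those at 5 CPM or more in ethanol, 0.59 (SE 0.07, edgeR adjusted p = 6.4e-06), and rose by 0.48 in rapamycin (SE 0.07, edgeR adjusted p = 4.9e-05). Eif4a1 rose by 0.44 (SE 0.04, edgeR adjusted p = 8.2e-07) and 0.41 (SE 0.04, edgeR adjusted p = 1.6e-06). Rapamycin lowered this gene and the siRNA raised it, and its level was 1940 to 2106 CPM with both and 1889 to 1916 CPM with neither. Eif2s1 rose by 0.38 and 0.30, and Etf1 by 0.35 and 0.21. Eif1ad rose by 0.48 and 0.25. Eif4b rose by 0.12 in ethanol, a call lost in turn without 10 of the 12 libraries (log2 fold changes of 0.10 to 0.13), all but replicate 3 of the control cells and replicate 2 of the knockdown cells in ethanol, and by 0.24 in rapamycin.

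Of the 14 eIF3 genes, 10 rose and none fell with the Crebl2 siRNA in each treatment (71.4% called, beside 38.4% of all genes in ethanol and 33.1% in rapamycin). The call of Eif3h in ethanol (0.11) was lost without any single library of the rapamycin groups (0.09). Leaving out replicate 2 (0.12) or 3 (0.09 and 0.10) of the control or knockdown cells with ethanol lost it too. That of Eif3j1 in ethanol (0.21) was lost without replicate 1 or 3 of the control cells with ethanol (0.21 and 0.19). Replicate 3 of the control cells with rapamycin (0.19) or 2 of the knockdown cells with ethanol (0.14) cost it as well. Eif3l held 488, 448 and 476 CPM in control cells and 593, 570 and 598 CPM in knockdown cells in ethanol, and 556, 581 and 551 CPM against 714, 756 and 718 CPM in rapamycin. It rose by 0.32 (SE 0.05, edgeR adjusted p = 5e-05) and 0.37 (SE 0.05, edgeR adjusted p = 1.3e-05), and the groups were separate. Eif3b rose by 0.34 and 0.20, Eif3d by 0.31 and 0.31, and Eif3c by 0.21 and 0.14. In rapamycin the call of Eif3e (0.20) was lost without replicate 2 of the control cells (0.18) or 1 of the knockdown cells (0.20). Eif3f, which rose most of the subunits with rapamycin, was not called for the siRNA (-0.04 and 0.06). All 4 tested eIF2B genes rose in ethanol (0.23 to 0.55, the highest that of Eif2b3, with a mean of 3.98 CPM), and 3 of them in rapamycin. Of these 3, Eif2b3 (0.36) lost its call without replicate 1 (0.37) or 2 (0.38) of the control cells with rapamycin. Leaving out replicate 1 of the knockdown cells with rapamycin (0.33) or the count filter (0.39) lost it too.

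In rapamycin the 3 factor genes that fell with the Crebl2 siRNA were Eef2k, Eif5a2 and Eif2s3x. Eif5a2, the second form of eIF5A, which helps the ribosome past difficult sequences, held 39.1, 37.6 and 36.3 CPM in control cells and 33.3, 28.6 and 29.7 CPM in knockdown cells, a fall of 0.30 (SE 0.08, edgeR adjusted p = 0.0066). This call was lost without replicate 1 of the control cells with rapamycin (-0.24) or replicate 2 (-0.23) or 3 (-0.25) of the knockdown cells with rapamycin. Eif2s3x fell by 0.20 (SE 0.05, edgeR adjusted p = 0.0074), a call lost without replicate 1 (-0.15) or 3 (-0.17) of the control cells with rapamycin or replicate 1 (-0.17) or 3 (-0.14) of the knockdown cells with rapamycin. The second fall in ethanol was Eif4e2, an eIF4E-like cap-binding protein, at -0.50 (SE 0.19, edgeR adjusted p = 0.047). Its groups overlapped, at 6.62, 4.99 and 3.82 CPM against 3.72, 3.36 and 3.84 CPM, and the call was lost in turn without 5 of these 6 libraries, with a value of -0.28 without replicate 1 of the control cells.

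**Figure D4:**
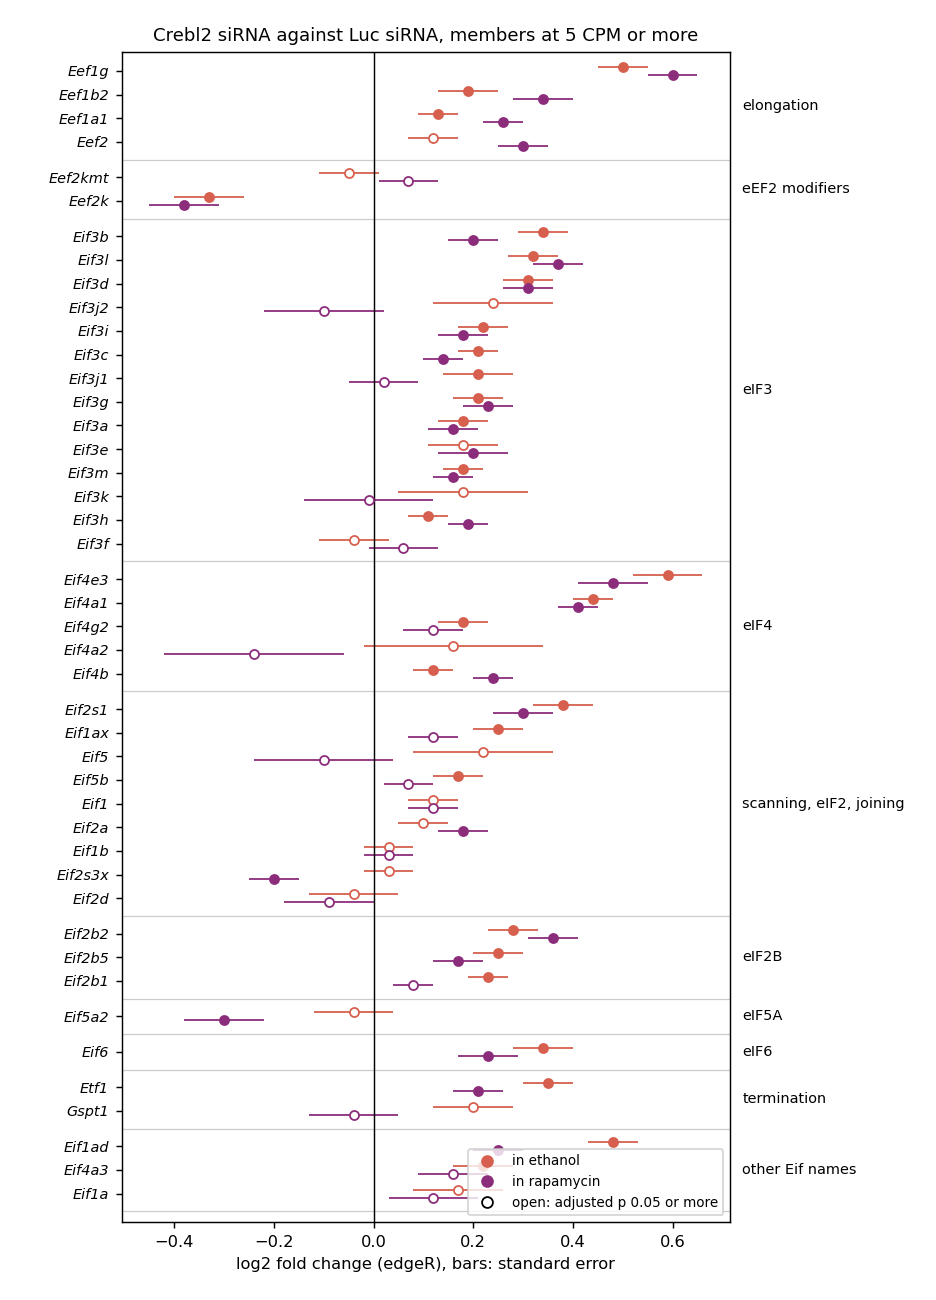
Log2 fold change (horizontal axis) for knockdown against control cells, in ethanol and in rapamycin, for the 44 tested factor genes at or above 5 CPM on average, grouped by role; bars are standard errors, filled points passed the test and open points did not. Most filled points lie to the right of 0, with Eef1g at 0.50 and 0.60, and Eef2k lies to the left at -0.33 and -0.38.

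The interaction asked whether the rapamycin change differed between the siRNAs. By edgeR's quasi-likelihood F test none of the 52 factor genes was called, where 1.20% of all genes tested were (0.611% higher and 0.589% lower), and DESeq2 called none of the 46 to which it gave an adjusted p, where it called 4.78% of the 8110 genes with one. At an unadjusted p under 0.05 there were 6: Eif1ad (-0.23), Eif2s3x (-0.23), Eif2b1 (-0.15), Eef1a1 (0.13), Eef2 (0.18) and Eif5a2 (-0.26), as log2 differences with the Crebl2 siRNA minus the Luc siRNA. The lowest edgeR adjusted p was 0.13, for Eif1ad. Over the factor genes the differences ran from -0.56 to 0.26, and the lowest was that of Eef1d, which had few counts. A p above the threshold does not show that the rapamycin changes were alike: the difference of 0.18 for Eef2 had an SE of 0.07.

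Levels per countable kilobase set the members of a complex side by side. With the Luc siRNA in ethanol, Eef1a1 stood at 9868 ± 134 CPM per kilobase (SD, n = 3), Eef2 at 2270 ± 98.4 and Eef1g at 432 ± 14.4. Among fully countable eIF3 genes the order was Eif3h (566 ± 16.3), Eif3e (361 ± 22.3), Eif3i (298 ± 10.9), Eif3l (242 ± 10.6), Eif3g (183 ± 6.31), Eif3a (180.0 ± 6.99), Eif3c (167 ± 4.89), Eif3b (161 ± 8.48), Eif3d (145 ± 8.04) and Eif3f (135 ± 13.3) CPM per kilobase. Eif3g and Eif3a, Eif3c and Eif3b, and Eif3d and Eif3f differed by less than the larger of their SDs. In control cells with rapamycin, Eif3f stood at 221 ± 16.4 and Eif3b at 142 ± 7.35 CPM per kilobase, so their order was reversed.

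The other genes of the pathway, 46 regulators and partners of which 41 were tested, were called for rapamycin about as often as all genes: 2 rose and 12 fell in control cells (34.1% called, beside 41.1% of all genes), and 3 rose and 17 fell in knockdown cells (48.8%, beside 45.3%). Falls outnumbered rises over all genes as well, with 2860 against 2581 and 3387 against 2614, but by less. In control cells 4.88% of the 41 rose and 29.3% fell, beside 19.5% and 21.6% of all genes. In knockdown cells 7.32% rose and 41.5% fell, beside 19.7% and 25.6%. With the Crebl2 siRNA, 15 rose and 3 fell in ethanol (43.9%, beside 38.4%), and 8 rose and 3 fell in rapamycin (26.8%, beside 33.1%). Pabpc1, the poly(A)-binding protein that contacts eIF4G and a known TOP mRNA, rose in all 4 comparisons, by 0.46 and 0.50 with rapamycin and by 0.39 and 0.44 with the Crebl2 siRNA. Its levels were 2064 ± 50.6 CPM (SD, n = 3) in control cells with ethanol, 2713 ± 51.0 with the Crebl2 siRNA in ethanol, 2836 ± 83.8 in control cells with rapamycin and 3843 ± 59.4 with the Crebl2 siRNA in rapamycin. Ltv1, an assembly factor of the small subunit, and Eef1e1, a scaffold of the synthetase complex, fell with rapamycin by 0.60 and 0.68 and by 0.73 and 0.71, and rose with the siRNA by 0.46 and 0.38 and by 0.40 and 0.42. Ppp1r15b, which directs the phosphatase of eIF2 alpha, fell in all 4 comparisons, by 0.38 and 0.62 with rapamycin and by 0.14 and 0.39 with the siRNA. Eif2ak3, the eIF2 kinase PERK, fell by 0.27 and 0.30 with rapamycin and was not called for the siRNA. Eif4ebp1, the repressor of eIF4E that mTORC1 phosphorylates, was not called in any of the 4.

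Other genes of the translation machinery are given for comparison. Of 69 ribosomal protein genes tested, 45 rose and 5 fell in control cells (median log2 fold change 0.34), and 45 rose and 6 fell in knockdown cells (0.42). Of 15 cytosolic aminoacyl-tRNA synthetase genes tested, 1 rose and 10 fell (-0.43), and 1 rose and 12 fell (-0.57) in the same order. The shares called were 72.5% and 73.9% for ribosomal protein genes and 73.3% and 86.7% for synthetase genes, beside 41.1% and 45.3% of all genes. The 5 tested elongation factor genes had medians of 0.34 and 0.50, and the 36 tested initiation factor genes 0.12 and 0.02. With the Crebl2 siRNA all of these groups had positive medians: 0.24 and 0.33 for ribosomal protein genes, 0.29 and 0.19 for synthetase genes, 0.13 and 0.30 for elongation factor genes and 0.21 and 0.13 for initiation factor genes, in ethanol and in rapamycin. These medians are descriptions and were not tested against each other.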

How the data were processed

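Stranded total RNA libraries of 12 C2C12 samples in 4 groups of 3 were used. The deposited values are whole-number read counts per transcript, not normalized, for 58611 transcripts per library. The submitters' processing notes list Trim Galore, TopHat and HTSeq and the builds mm9 and GRCm38. Tool versions, the annotation used, strand handling and the treatment of shared reads are not given in the sources used here. Transcript identifiers were matched to GENCODE M21 on GRCm38 (99.41%) and counts were summed per gene; the 347 unmatched identifiers held 0.0382% of counts and were left out. Without a stated strand setting, genes with an antisense neighbour are uncertain. Library totals were 33404087 to 42891015 counts. The 13247 genes kept by edgeR's group-wise filter (minimum count 10) were scaled by TMM and tested in one fit of all 12 libraries with edgeR 4.0.16 (R 4.3.3, quasi-likelihood F test, Benjamini-Hochberg over all tested genes, called under 0.05). Common biological variation was 6.85%. The fit was tested on simulated counts. CPM are TMM-scaled. Alternatives were RLE scaling, DESeq2 1.42.0, other count filters, a replicate block, only the groups compared, coding genes only, genes of at least 90% countable bases, the top transcript per gene and leaving out each library. The genes and lists were chosen with earlier results of these data known. Values in every library are given for the elongation factor genes and, per comparison, the 4 largest called rises and falls at 5 CPM or more without overlap between groups; other genes with library values were added for their role or to show an overlap. Promoter sequences came from RefSeq on GRCm38.p6. Counting Eif1a with the initiation genes was an alternative added after seeing the data. No 2 libraries held identical counts.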

Additional observations from a re-analysis of the deposited data

How the results depend on the processing

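No called gene changed sign. Of 126 called pairs of a factor gene and a comparison, 101 kept the call in every alternative run and 25, from 21 genes, lost it in at least 1, 24 of them when a single library was left out. Alternatives cost 11 calls with no count filter (Eef1a1, Eif2b2, Eif2b3 in 2 comparisons, Eif3a, Eif3h, Eif3i, Eif3j1, Eif4b, Eif5a and Eif5b), 9 with only the groups compared (Eef1a1, Eef1b2, Eif2b3, Eif3a, Eif3h, Eif3j1, Eif4b, Eif4g2 and Eif5b), 7 with the replicate block (Eif2b2, Eif3a, Eif3e, Eif3h, Eif3i, Eif4b and Eif4e2), 3 with the top transcript per gene (Eif2b3, Eif4e2 and Eif5a), 2 with DESeq2 (Eif2b3 and Eif5a), 1 with RLE scaling (Eif3a) and 1 with genes of at least 90% countable bases (Eif3h). The cause of these changes was not tested.

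The labels do not say whether equal replicate numbers pair the libraries. In their deviations from the group means, 18 same-numbered pairs correlated between -0.292 and 0.124, 2 of them over 0.1, and 36 other pairs between -0.315 and 0.374, 7 over 0.1. Deviations from a mean of 3 libraries depend on each other, so these correlations cannot exclude a pairing. With the replicate block, the factor genes and the initiation factor genes called lower with the Crebl2 siRNA in ethanol were 1 and 0, in place of 2 and 1.

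With the Crebl2 siRNA in ethanol, factor genes called lower were 1 by the top transcript, 1 at 5 CPM or more and 0 in the fit of genes with at least 90% countable bases. Initiation factor genes called lower were 2 with no count filter, 2 with coding genes only, 2 by DESeq2, 0 by the top transcript and 0 in the 90% fit, and elongation factor genes called higher were 1 with only the groups compared. In rapamycin, factor genes called lower were 1 in the 90% fit, and initiation factor genes called lower 2 with no count filter and 0 in the 90% fit, while the initiation median was 0.18 over members of at least 90% countable bases. For rapamycin with the Luc siRNA the initiation median was 0.01 with no count filter and 0.05 by name alone (every Eif against every Eef gene), and the elongation median 0.26 with no count filter, 0.47 at a minimum count of 50, 0.56 in the 90% fit, 0.57 over members of at least 90% and 0.26 by name alone. For rapamycin with the Crebl2 siRNA, factor genes called lower were 11 in the 90% fit. The initiation median, 0.02 in the reported fit, was 0.07 at a minimum count of 50, 0.09 in the 90% fit, 0.10 over members of at least 90%, and below 0 by name alone (-0.07) and with Eif1a included (-0.01), so its sign is not settled. The elongation median was 0.61 with no count filter, 0.62 at a minimum count of 50, 0.69 in the 90% fit, 0.69 over members of at least 90% and 0.37 by name alone. The interaction's initiation median was -0.01 with no count filter.

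The ratio of sums was 2.08, 1.963 and 2.891 by name alone for the Luc siRNA in ethanol, the Crebl2 siRNA in ethanol and the Luc siRNA in rapamycin. It was 2.356, 2.211, 3.195 and 3.315 over members of at least 90%, with the Crebl2 siRNA in rapamycin last, and 0.70, 0.6727, 1.094 and 1.182 without Eef1a1. The tract was found in 11 and 17 genes in the wider windows, in place of the 2 with a C of the tract at the annotated first base.

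Leaving out each library in turn gave ranges. With the Crebl2 siRNA in ethanol, factor genes called lower ran from 1 to 3, initiation factor genes called lower from 0 to 2 and the elongation median from 0.11 to 0.22. Factor genes called higher ran from 24 to 27 there, and initiation factor genes called higher from 17 to 21. In rapamycin, factor genes called lower ran from 1 to 4, initiation factor genes called lower from 0 to 2 and the initiation median from 0.13 to 0.19. For rapamycin with the Luc siRNA, factor genes called higher ran from 14 to 19 and initiation factor genes called higher from 10 to 15. Both were lowest without replicate 2 of the control cells with rapamycin. The initiation median for rapamycin ran from 0.05 to 0.16 with the Luc siRNA and from 0.02 to 0.11 with the Crebl2 siRNA. The interaction median for initiation factor genes ran from -0.06 to 0.03 and changed sign; for elongation it ran from 0.11 to 0.21. Low countable shares limit Eef1d, Eif4g1, Eif4h, Eif2s2, Eif2b4, Eif4enif1 and Eif4e1b most, whatever the depth.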

Other observations

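Written as percentages, the summed CPM of the 6 elongation factor genes were 2.43% to 2.50% in the libraries with the Luc siRNA in ethanol, 2.62% to 2.80% with the Crebl2 siRNA in ethanol, 3.81% to 4.01% with the Luc siRNA in rapamycin and 4.57% to 4.86% with the Crebl2 siRNA in rapamycin. They are TMM-scaled and are not shares of the reads of a library. The TMM factors were 1.037 to 1.052 with the Luc siRNA in ethanol and 0.971 to 0.998 with the Crebl2 siRNA in ethanol. Part of the gap between these 2 groups therefore comes from the scaling.

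Genes whose products modify elongation factors differed from one another. Dph2, an enzyme of the diphthamide residue of eEF2, fell by 0.46 and 0.62 with rapamycin (Luc and Crebl2 siRNA) and rose by 0.56 and 0.40 with the Crebl2 siRNA (ethanol and rapamycin). Dph1, an enzyme of the same step, rose by 0.23 and 0.28 with the Crebl2 siRNA and was not called for rapamycin (0.04 and 0.09). Eef1akmt2, a methyltransferase of eEF1A singled out after its values were seen, fell by 0.86 and 1.18 with the Crebl2 siRNA and was not called for rapamycin (0.12 and -0.19). Dohh, which completes the hypusine of eIF5A, fell by 0.23 and 0.24 with rapamycin, while Dhps, which begins it, rose by 0.19 with the Luc siRNA and lay at 0.09 with the Crebl2 siRNA.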
